A study of Mus musculus with 4 samples.

Results

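Long intergenic non-coding RNAs (lincRNAs) were described in mouse Th17 cells, the CD4 T cells that secrete IL-17. A gene was included when GENCODE M21, a catalogue of mouse genes, types it as lincRNA, when it lies on an autosome, and when it reached at least 1 TPM in each of 4 libraries. TPM, a length-scaled level, divides the counts of a gene by its exon length and then scales each library to the same sum, so levels can be set side by side between genes. By this rule 135 genes were kept of 3815 autosomal lincRNAs in the deposited tables, which list 50600 genes in all. Of the autosomal lincRNAs left out, 2885 had no count in any library and 795 had counts but fell under the rule. The members were thus chosen by their TPM in these same 4 libraries, so levels are given as a description and without a test.

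All 4 libraries belong to 1 group: primary Th17 cells of the strain C57BL/6NJ, with no other genotype, treatment or time in the labels. Sex was not collected, the age is unknown, and the 4 biological replicates carry the same donor label. The cells were differentiated from CD4 T cells in culture, per the linked protocol. The label of the assay is total RNA-seq, but the library protocol it links to is for polyadenylated RNA, so transcripts without a poly(A) tail may be under-represented whatever their level in the cell. Whether the libraries came from separate animals or cultures is not stated, and p-values therefore measure only the spread between these samples, part of which may be technical.

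LincRNAs are transcribed by RNA polymerase II outside protein-coding genes and are often spliced, capped and polyadenylated like messenger RNA. Some act as RNA, as scaffolds of nuclear bodies or near the site where they are made. Others serve mainly as precursors that are cut to release microRNAs (miRNAs) or small nucleolar RNAs (snoRNAs), and some were later found to hold a short coding frame.

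Library totals ranged from 28555677 counts in replicate 1 to 58104663 in replicate 3. All 12 of the Th17 and T cell markers examined were at 1 TPM or more in every library. Markers of other cells were low except for Cd8b1. The 5 B cell markers summed to 0.481 to 1.04 TPM with Ms4a1 at 0. The 5 macrophage markers summed to 1.00 to 1.31 TPM with Lyz2 at 0. The 2 CD8 T cell markers summed to 9.01 to 11.6 TPM, where Cd8b1 had a mean of 10.2 TPM and Cd8a of 0.0612 TPM. Sex-linked genes split the libraries in spite of the shared donor label. Xist, the X-inactivation RNA, was at 132, 131, 0.329 and 0.496 TPM in replicates 1 to 4, and the Y-linked gene Ddx3y was at 0.428, 0.347, 58.9 and 57.3 TPM. Replicates 1 and 2 thus carried the female pattern and replicates 3 and 4 the male pattern, which a single animal would not give. No groups were formed from this split.

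The miRNAs carried by the members are shown first, because they are the best known products of lincRNA genes in lymphocytes. On their own strand, 8 of the 135 members spanned 14 miRNA genes, with 25 mature miRNAs in RefSeq (build GRCm38.p6). The 3 hosts of highest TPM carry miR-142, a miRNA of blood cells, miR-155, which is induced when lymphocytes are activated, and the miR-17 to miR-92 cluster, known for promoting proliferation. Their main mature sequences are printed 5′ to 3′, with the seed (bases 2 to 8, which pair with target messages) in capitals.
miR-142a-5p: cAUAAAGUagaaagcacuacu
miR-142a-3p: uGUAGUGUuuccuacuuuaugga
miR-155-5p: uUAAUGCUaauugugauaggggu
miR-155-3p: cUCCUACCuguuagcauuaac
miR-17-5p: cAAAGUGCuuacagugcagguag
miR-20a-5p: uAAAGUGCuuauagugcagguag
miR-18a-5p: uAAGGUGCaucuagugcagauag
miR-19a-3p: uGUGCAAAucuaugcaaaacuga
miR-19b-3p: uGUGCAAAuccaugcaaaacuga
miR-92a-3p: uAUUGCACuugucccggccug

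Within the Mir17hg transcript, miR-17-5p and miR-20a-5p share the seed AAAGUGC, and miR-19a-3p and miR-19b-3p share GUGCAAA. These were the only shared seeds, so the 25 mature miRNAs of all 8 hosts held 23 seeds. Mature miRNAs were not measured by these libraries, and the values that follow are those of the host transcripts.

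Mir142hg was at 93.6, 102, 120 and 106 TPM in replicates 1 to 4. Its deposited model (chr11:87755577-87757270, plus strand) has only 269 exon bases in 2 exons, the shortest of the 135, so its TPM rests on 215 to 566 counts. By CPM (counts scaled to the library total, not divided by length) it ranked 29 among the members against 6 by TPM. Mir155hg (chr16:84703167-84715245, plus strand) was at 88.0, 78.6, 91.1 and 87.2 TPM, with replicate 2 lowest. Mir17hg (chr14:115042879-115046727, plus strand) was at 32.7, 36.3, 34.6 and 31.1 TPM. It shares 15.2% of its exon bases with its miRNA genes, where fragments were not counted for either gene, so its TPM may be too low. For each of these hosts, the lowest and highest libraries lay within 1.5-fold of each other.

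The other 5 miRNA hosts were low. Snhg20, which spans Mir6516 and a small Cajal body RNA, was at 8.36 ± 0.596 TPM (SD, n = 4). 2900076A07Rik, which spans Mir1839, was at 3.18 ± 0.183 TPM, and 4833445I07Rik, which spans Mir191 and Mir425, was at 2.56 ± 0.657 TPM. 6720427I07Rik, the host of Mirlet7d of the let-7 family, was at 1.90 ± 0.435 TPM, and Gm37233, which spans Mir5103, at 1.14 ± 0.120 TPM. The miRNA rows that lie in an exon of their host had 0 counts in every library. The counting left out fragments that overlap 2 genes, so these zeros do not measure the precursors. Mir142 lies outside the exons of its host and had 29, 16, 46 and 29 counts.

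snoRNAs guide the chemical modification of ribosomal RNA, and many of their host transcripts are otherwise non-coding. Among the members, 6 spanned a snoRNA or scaRNA gene, 2 of them also a miRNA. Snhg6, the host of Snord87, was at 224, 205, 221 and 206 TPM and had the second highest mean of all members. Epb41l4aos, which spans the snoRNA gene Gm23639, was at 144, 128, 144 and 154 TPM. Snhg12, with the snoRNA genes Snora16a, Snora44, Snora61 and Snord99, was at 90.7, 98.0, 95.6 and 92.6 TPM. It shares 20.5% of its exon bases with such genes on the same strand. Fragments there were not counted for either gene, so its TPM may be too low. 2700038G22Rik, the host of Snord93, was at 22.9, 25.2, 26.0 and 26.2 TPM. In all, 12 members (8.89%) spanned a small RNA gene, against 62 of the 3680 other autosomal lincRNAs (1.68%). This difference was not tested.

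Most of the listed snoRNA hosts that were found by name were kept out by their gene type and not by their level. Of 23 snoRNA hosts looked up, 18 were found. Of these 18, 4 were members and 10 others were at 1 TPM or more in every library under another type. These included Gas5 at 228 ± 13.8 TPM, Snhg1 at 179 ± 2.91 TPM, Snhg5 at 159 ± 8.68 TPM, Snhg3 at 134 ± 7.08 TPM and Zfas1 at 126 ± 2.11 TPM, all typed as processed transcripts. The remaining 5 were Snhg8 at 96.6 ± 4.57 TPM, Snhg15 at 85.6 ± 3.80, Snhg17 at 29.7 ± 0.792, Snhg9 at 5.07 ± 1.29 and Dancr at 2.35 ± 0.517.

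The member with the highest level was Gm42418 (chr17:39846958-39848788, plus strand, 1 exon), at 1890, 1379, 1311 and 1377 TPM. It made up 47.7% of the summed TPM of the members in replicate 1 and 39.1% to 40.8% in the other libraries. Its place in the genome bears on what this value counts. It lies inside the ribosomal RNA row CT010467.1, which is on the opposite strand and had 2, 0, 8 and 129 counts. Matched on either strand, 94.9% of the 50-base windows of the Gm42418 transcript occur in that row. This share restates the overlap in position and is no separate evidence. Gm26917 (chr17:39843013-39846341), which ends just before the same row, had the next level after Snhg6, at 146, 162, 146 and 160 TPM. How much of either value is ribosomal RNA was not tested. Without Gm42418, the members summed to 2074, 1998, 2039 and 2046 TPM in replicates 1 to 4.

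Most members were far lower. By mean TPM, 6 were at 100 or more, 12 between 30 and 100, 17 between 10 and 30, 28 between 5 and 10, 50 between 2 and 5, and 22 under 2. The median was 4.43 TPM, against 31.3 TPM for the 10223 protein-coding genes that met the same level rule. The share at 10 TPM or more was 25.9% of members and 77.3% of those protein-coding genes. Members were also shorter than those genes, with a median of 1642 exon bases in 2 exons against 4193 bases in 10 exons. Of the members, 31 (23.0%) had a single exon, against 2.39% of those genes. The 3680 other autosomal lincRNAs had a median of 988.5 bases in 3 exons, and 6.79% had a single exon. Members were thus longer than these, with a higher share of single exons. Across the 135 members, mean TPM and exon length, both in log2, had a Pearson r of 0.016 and a Spearman rho of 0.039, a description across genes that share libraries and depth.

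**Figure D1:**
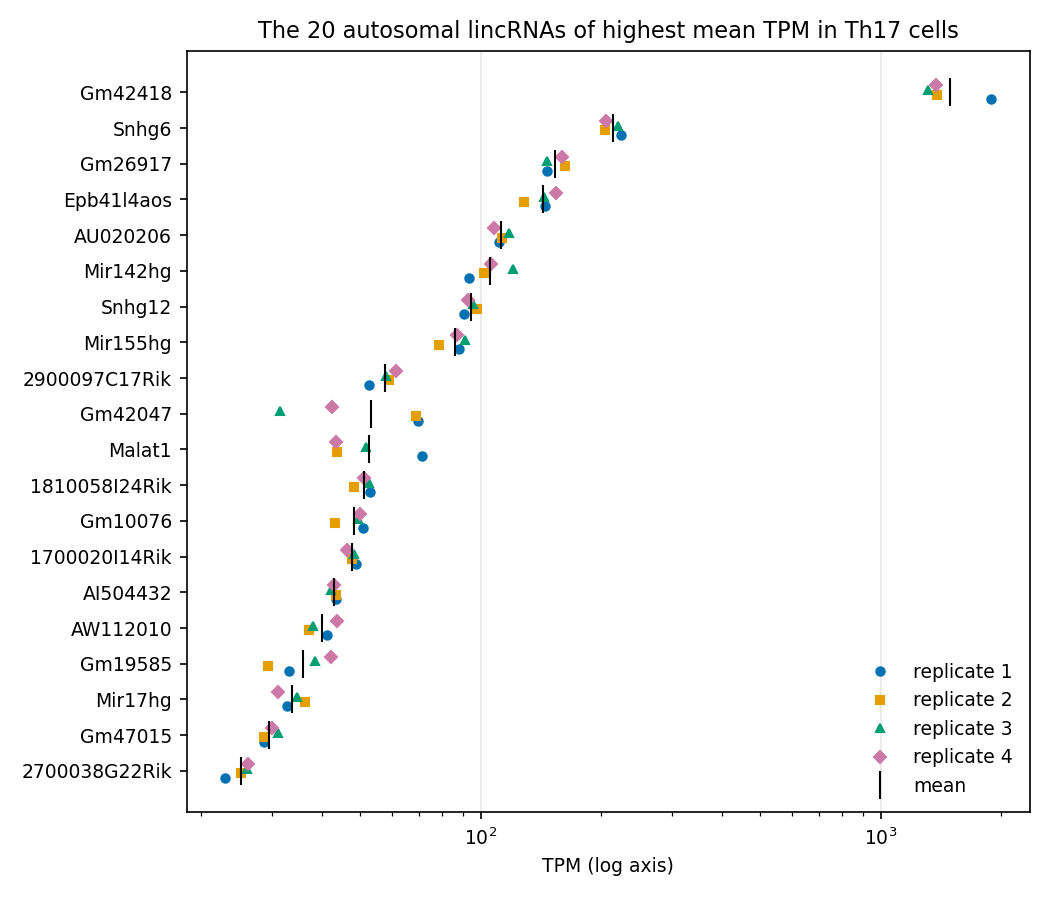
TPM of the 20 members of highest mean TPM in each of the 4 libraries, on a log axis, with one marker per replicate and a bar at the mean. Gm42418 stands near 1489 TPM, the next member Snhg6 at 214 TPM, and the replicates of most genes lie close together except for Gm42047 and Malat1.

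AU020206 (chr7:75769038-75782099, minus strand) was at 111, 113, 118 and 108 TPM, the fifth highest mean and the same rank by CPM. Its nearest protein-coding gene by start site, Klhl25, lay 66211 bases away at 27.0 TPM. Beyond the miRNA and snoRNA hosts, several members of the 20 highest have known products or functions. 2900097C17Rik, the mouse counterpart of Norad, which binds Pumilio proteins, was at 52.4, 58.8, 58.0 and 61.4 TPM over a deposited model of 1149 bases. Its GENCODE M21 sequence is longer, with 4866 windows of 50 bases, and 39.5% of these also occur in the lincRNA Gm7292 on chromosome 6. Whether the shared part lies in the 1149 counted bases was not tested, so its counts are uncertain. 1700020I14Rik, listed in RefSeq as Oip5os1 and also known as Cyrano, an RNA with a strong site for miR-7, was at 48.9, 47.7, 48.1 and 46.3 TPM. It is among the steadiest members, with a coefficient of variation (CV, the SD over the mean) of 2.22%.

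1810058I24Rik, from which a mitochondrial micropeptide has been described, was at 52.7, 48.1, 52.4 and 51.1 TPM. AW112010, an interferon-responsive transcript for which translation has also been described, was at 41.2, 37.3, 38.1 and 43.7 TPM. AI504432, which follows the potassium channel gene Kcna3, was at 43.4, 43.3, 42.1 and 42.9 TPM, a CV of 1.39%. For each of these 3 genes the highest library was within 1.5-fold of the lowest.

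Gm10076 was at 50.7, 43.3, 49.3 and 49.9 TPM over 384 exon bases, but 69.9% of its 50-base windows also occur in Rpl41, which encodes a ribosomal protein and lies on chromosome 10. The counting used no option for multi-mapping fragments, so fragments that match both genes may be missing from its counts, which are uncertain. Gm19585 was at 33.2, 29.4, 38.5 and 42.3 TPM and Gm47015 at 28.6, 28.7, 31.1 and 30.0 TPM. Ranking by CPM kept 15 of the 20 highest members. Gm10076, Mir142hg, AW112010, Gm19585 and 2700038G22Rik gave way to Neat1, Dubr, Gm37494, 5430416N02Rik and Tmem250-ps.

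At the ends of the length range, the longest model was Neat1, the scaffold of nuclear paraspeckles, with 20771 bases in 1 exon. It was at 6.40, 6.14, 6.53 and 6.03 TPM. Gm37494 had 16543 exon bases at 2.62 ± 0.129 TPM, and 2310001H17Rik 7241 bases at 3.50 ± 0.216 TPM. Pvt1, the neighbour of the oncogene Myc, had 6996 bases in 21 exons at 3.92 ± 0.387 TPM. The shortest after Mir142hg were Gm12711 with 340 bases (3.85 ± 1.37 TPM), Gm12319 with 357 (4.30 ± 0.452), Gm37986 with 383 (3.56 ± 0.646), and Gm47552 with 384 (2.03 ± 0.347).

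Lists of well-known non-coding RNAs were looked up in the tables. Of 6 RNAs found from a list headed as nuclear, Malat1, Neat1 and 2900097C17Rik were members. Tug1 was at 24.3 ± 0.989 TPM under the antisense type, and Miat and Meg3 had no count. The place of these RNAs in the cell was not measured, so the heading is no result for any of them, 2900097C17Rik included. Of 11 miRNA hosts found, Mir142hg, Mir155hg, Mir17hg and Pvt1 were members, while Mir22hg at 8.34 ± 1.09 TPM and Dleu2 at 2.86 ± 0.347 TPM were typed as processed transcripts. None of 9 imprinted non-coding RNAs was a member. Peg13 at 7.42 ± 0.268 TPM and Nespas at 1.15 ± 0.106 TPM reached the level under other types, and Meg3, Rian and Mirg had no count in any library. None of 12 developmental non-coding RNAs was a member. Of 10 genes of a p53, growth and cell cycle list, Pvt1 was a member, and Gas5 and Dleu2 reached the level under another type.

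Of 16 RNAs studied in immune cells, 3 were members, and Gm15987 reached the level as an antisense RNA at 1.59 ± 0.185 TPM. The members were AU020206, Gm28875 at 10.2, 13.4, 12.7 and 14.6 TPM, and Gm14005 at 1.49, 1.02, 1.68 and 1.47 TPM. Gm14005, also called Morrbid, is known for limiting the expression of the pro-death gene Bcl2l11 in short-lived myeloid cells. Ifngas1, the RNA beside the Th1 cytokine gene Ifng, had no count in any library.

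Gm14005 also lay nearest to the threshold among the members. The members whose lowest library was just inside it were Gm14005, D730003I15Rik and A330069E16Rik at 1.02 TPM, Gm37233 at 1.03 TPM and B230217O12Rik at 1.08 TPM. Just outside were Gm15473 at 0.994 TPM, Gm26510 at 0.949, A230028O05Rik and Gm5122 at 0.937, and 4933424M12Rik at 0.930. In the table, 26 autosomal lincRNAs had a mean of 1 TPM or more but missed it in some library.

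The next comparison asked whether expressed lincRNAs lie near expressed protein-coding genes, which the rule did not use. By start sites, the nearest protein-coding gene was at 1 TPM or more in every library for 96 of 135 members (71.1%). The same held for 49.02% of the 3680 other autosomal lincRNAs and for 42.7% of the 2885 with no count. The median level of that neighbour was 21.7 TPM for members, 0.992 TPM for the other lincRNAs and 0.195 TPM for those with no count. Members also lay closer to it, at a median of 17383 bases against 58030 bases. These shares are descriptions over the annotation and were not tested. Across the members, log2 TPM of the lincRNA and of its neighbour had a Pearson r of -0.21 and a Spearman rho of -0.088 (135 pairs, across genes).

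**Figure D2:**
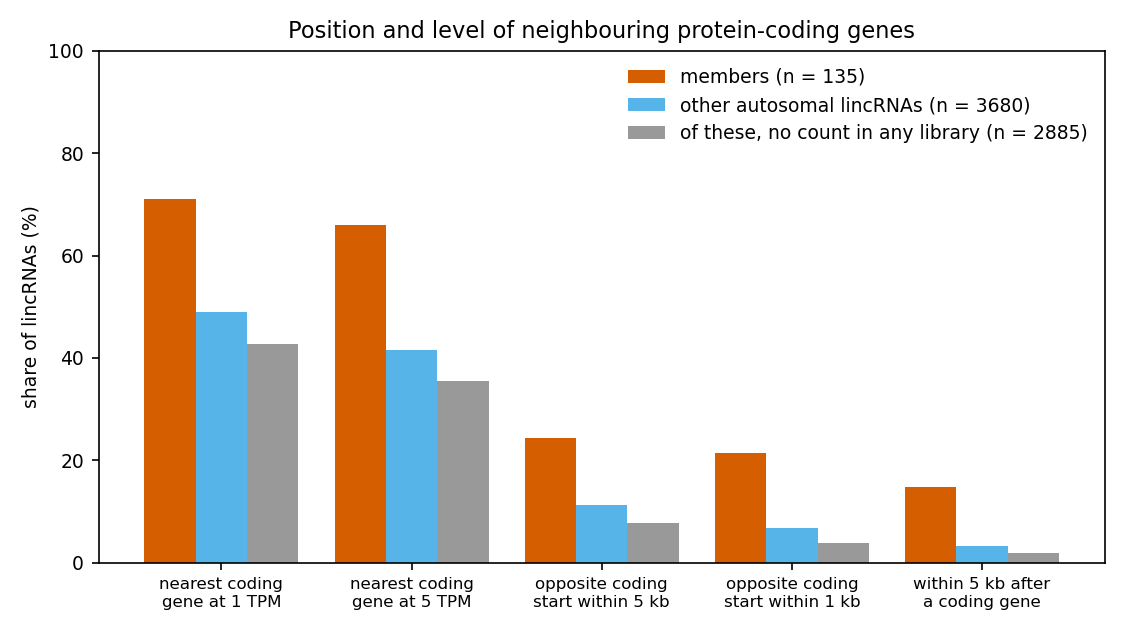
Share of lincRNAs (percent) with a given kind of protein-coding neighbour, for members, other autosomal lincRNAs, and the subset of these with no count. The member bar is the highest in each of the 5 comparisons, for example 24.4% against 11.4% and 7.83% for a coding start within 5 kb on the opposite strand.

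A protein-coding start on the opposite strand within 5 kb was found for 33 members (24.4%), against 11.4% of the other autosomal lincRNAs and 7.83% of those with no count. In 30 of the 33 pairs the starts faced away from each other, the arrangement of a shared, divergent promoter, and 23 lay within 500 bases. All 33 protein-coding partners were at 1 TPM or more in every library, against 56.2% of the partners of the other lincRNAs. Their median level was 41.5 TPM. Each of the 33 members was below its partner in 4 of 4 libraries, and the median pair differed 11.4-fold. Such pairs were found for 3 of the 35 members at 10 TPM or more (8.57%) and for 30 of the 100 members under 10 TPM.

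The widest gap was at Rps3a1, a ribosomal protein gene at 2265 ± 63.8 TPM, where Gm37933 starts 55 bases away and was at 2.03, 2.02, 1.81 and 1.5 TPM. Gm26664 was at 2.49, 1.79, 2.19 and 3.40 TPM beside the immediate early gene Ier2 at 386 ± 17.7 TPM. Gm39323 was at 11.8, 11.2, 10.8 and 12.1 TPM beside Thy1, a surface glycoprotein of T cells, at 381 ± 18.6 TPM. Both RNAs stayed more than an order of magnitude under their neighbours in every library. Fam120aos, at 1.66 ± 0.280 TPM, starts 270 bases from Fam120a, which encodes an RNA-binding protein and was at 328 ± 9.89 TPM.

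Further pairs joined genes of transcription and protein turnover. Gm5113 (6.17 ± 0.689 TPM) starts 125 bases from the zinc finger gene Zfp146 (78.6 ± 4.43 TPM). Gm17586 (9.56 ± 0.573 TPM) starts 168 bases from Mafg, a small Maf transcription factor (72.5 ± 1.72 TPM). 4632404H12Rik (1.74 ± 0.192 TPM) starts 376 bases from the ubiquitin-conjugating enzyme gene Ube2q1 (71.7 ± 1.99 TPM). Gm5914 (2.56 ± 0.336 TPM) and Ctcf, the insulator protein gene (142 ± 3.31 TPM), do not face away from each other, and Gm5914 shares 22.4% of its exon bases with Agrp on the same strand.

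The closest levels within a pair were those of Gm14230 (18.7 ± 1.76 TPM) and the repressor gene Tgif2 (24.03 ± 1.33 TPM), 115 bases apart, with a log2 ratio of -0.36 ± 0.06. This pair and the one of Gm11110 (9.69 ± 0.832 TPM) with Tnfsf9, the ligand of the T cell costimulator 4-1BB (51.1 ± 2.71 TPM), were singled out after their values were seen. The starts of Gm11110 and Tnfsf9, 557 bases apart, do not face away from each other, and these genes overlap on opposite strands.

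**Figure D3:**
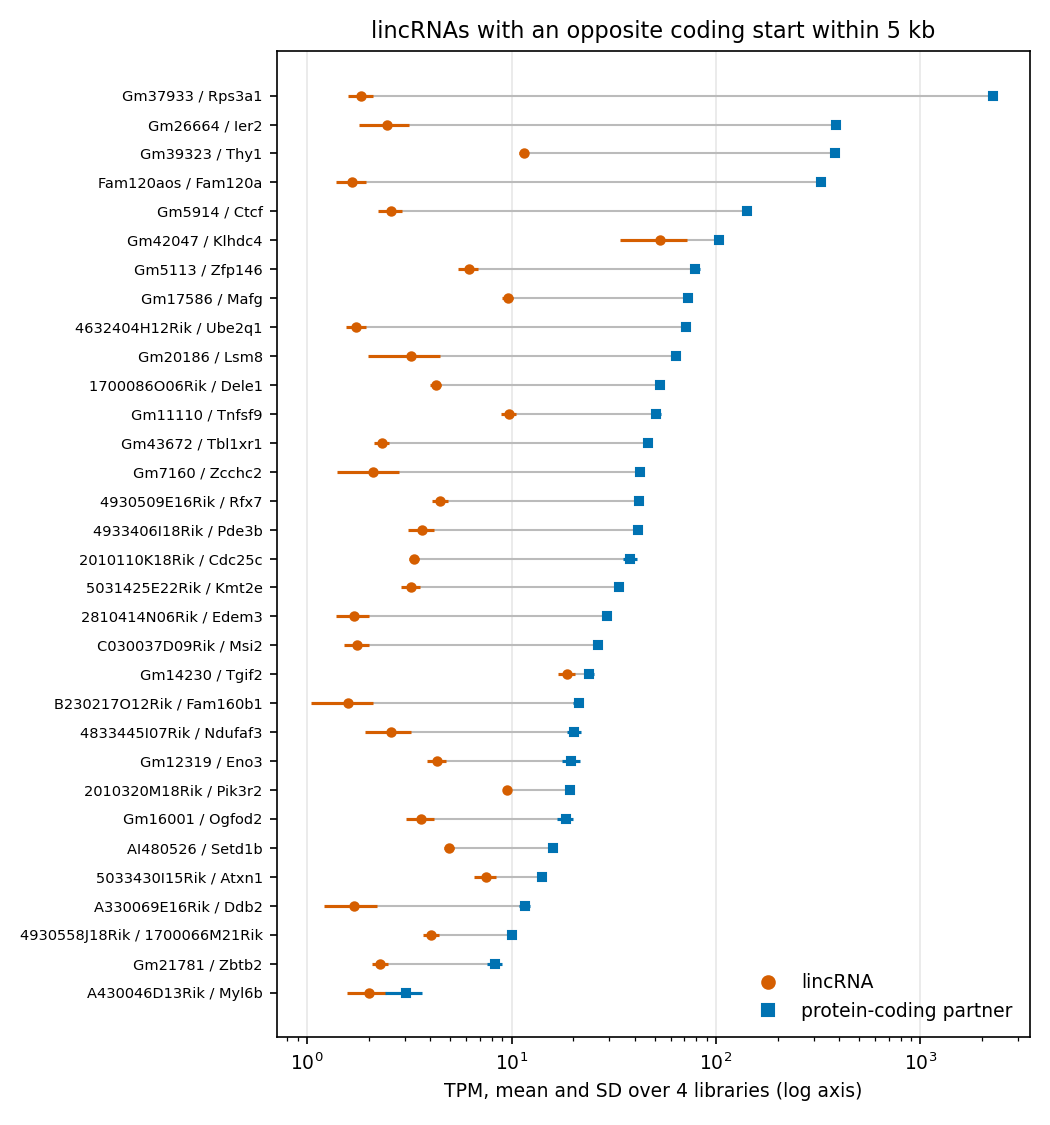
Mean TPM with SD over 4 libraries, on a log axis, of 32 of the 33 members with an opposite protein-coding start within 5 kb (circles) and of their partners (squares), ordered by the partner. Every circle lies to the left of its square, from Gm37933 and Rps3a1 at the top to A430046D13Rik and Myl6b at the bottom.

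Other members followed a gene instead. Within 5 kb after the end of a protein-coding gene on the same strand lay 20 members (14.8%), against 3.21% of the other autosomal lincRNAs. The gene before them was higher in mean TPM in 18 of the 20, with a median of 29.5 TPM. Whether reads past the end of that gene add to the lincRNA was not tested. 4833445I07Rik (2.56 ± 0.657 TPM) lies 1949 bases after Impdh2, of guanine nucleotide synthesis (362 ± 7.62 TPM), and also starts beside Ndufaf3. Gm38150 (2.29 ± 0.401 TPM) follows Ifrd2 (168 ± 6.72 TPM), and Gm43848 (1.99 ± 0.595 TPM) lies 120 bases after the GTPase gene Rap1a (161 ± 4.32 TPM).

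Among the same 20, 9430002A10Rik (5.33 ± 0.839 TPM) follows Heatr3 (115 ± 2.60 TPM), and Neat1 follows Frmd8 (77.2 ± 4.40 TPM) at 4224 bases. 4833403J16Rik, at 11.7, 8.06, 10.9 and 12.1 TPM, lies 1128 bases after Gimap5, a GTPase needed for lymphocyte survival (62.3 ± 0.656 TPM). Gm37233 (1.14 ± 0.120 TPM) follows Ccdc115 (60.9 ± 2.04 TPM), and Gm42595 (6.47 ± 0.939 TPM) follows the helicase gene Ddx51 (46.1 ± 1.90 TPM). Lockd (3.87 ± 0.276 TPM) follows the cell cycle inhibitor gene Cdkn1b (29.7 ± 1.10 TPM). AI504432 was at 42.9 ± 0.596 TPM against 51.8 ± 1.64 TPM for the gene before it, Kcna3, the T cell potassium channel Kv1.3.

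Few members had a listed T cell gene as nearest protein-coding gene: 4 of 135 (2.96%), against 1.22% of the other autosomal lincRNAs, for a list of 73 genes. Gm19585 is nearest to Satb1, a chromatin organiser of T cells (123 ± 2.30 TPM), though 315999 bases away. Gm32255 (16.4 ± 1.04 TPM) lies 37768 bases from Egr2, induced by T cell receptor signals (94.0 ± 2.46 TPM). Pvt1 lies 52595 bases from Myc (434 ± 14.6 TPM). 2310001H17Rik lies 36711 bases from the activation marker gene Cd69 (48.7 ± 2.67 TPM).

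The share of lincRNAs that were members was also counted by chromosome, without a test. Chromosomes 1 to 11 hold 183 to 389 lincRNA rows each, of which 1.402% to 4.92% were members, and chromosomes 12 to 19 hold 36 to 136 rows each, of which 2.5% to 11.3% were. The highest share was on chromosome 17, with 8 of 71 rows.

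Promoter sequence was available from RefSeq (GRCm38.p6) for 70 of the 135 members, as windows from 250 bases before to 50 bases after the start, and 56 of these starts lay within 500 bases of the deposited ones. Of the motifs searched on both strands, CCGGAAG, a core bound by ETS factors, was in 14 of 70 windows (20%) and in 8.86% of all 32851 promoters of the table. The CCAAT box was in 40.0% against 37.4%, TATAAA in 11.4% against 13.6%, the E-box CACGTG in 7.14% against 7.15%, and the STAT-type motif TTCNNNGAA in 8.57% against 8.30%. The AP-1 motif TGANTCA was in 4.29% against 7.81%, an interferon-response-type motif in 1.43% against 3.44%, and an extended nuclear receptor motif in 0 windows against 0.219%. CCGGAAG and TTCNNNGAA can overlap. A match is a description of the letters and not a binding site.

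The windows differed by arrangement. The 17 members with an opposite coding start within 5 kb had a median of 34 CpG dinucleotides per window and 69.7% G+C, while the other 53 had a median of 7 CpG and 52.0% G+C. The median over the table was 7 CpG and 52.7% G+C. Windows of 3 members are printed below, with motif matches in capitals. They held 15 CpG (AU020206), 25 CpG (1810058I24Rik) and 39 CpG (Gm17586). Of the 3 members, only Gm17586 has an opposite coding start within 5 kb. The window of AU020206 (chr7:75782071-75782370, minus strand) holds 3 CCAAT boxes read on the other strand as ATTGG. That of 1810058I24Rik (chr6:35252460-35252759, plus strand) holds CCGGAAG on its other strand, overlapping TTCNNNGAA. That of Gm17586 (chr11:120633500-120633799, plus strand), whose start points away from that of Mafg, holds CACGTG.
AU020206: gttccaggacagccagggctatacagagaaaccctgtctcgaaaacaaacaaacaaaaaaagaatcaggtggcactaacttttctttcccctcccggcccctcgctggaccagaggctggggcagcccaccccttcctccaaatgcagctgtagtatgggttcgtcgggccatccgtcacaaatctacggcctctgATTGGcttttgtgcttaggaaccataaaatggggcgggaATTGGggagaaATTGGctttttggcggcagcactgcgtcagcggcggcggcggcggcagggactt
1810058I24Rik: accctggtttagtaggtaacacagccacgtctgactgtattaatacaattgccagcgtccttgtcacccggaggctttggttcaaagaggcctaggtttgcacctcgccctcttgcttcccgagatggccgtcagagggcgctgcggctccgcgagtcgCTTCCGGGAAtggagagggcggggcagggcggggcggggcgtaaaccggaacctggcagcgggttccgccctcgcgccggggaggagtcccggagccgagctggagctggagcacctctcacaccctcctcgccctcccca
Gm17586: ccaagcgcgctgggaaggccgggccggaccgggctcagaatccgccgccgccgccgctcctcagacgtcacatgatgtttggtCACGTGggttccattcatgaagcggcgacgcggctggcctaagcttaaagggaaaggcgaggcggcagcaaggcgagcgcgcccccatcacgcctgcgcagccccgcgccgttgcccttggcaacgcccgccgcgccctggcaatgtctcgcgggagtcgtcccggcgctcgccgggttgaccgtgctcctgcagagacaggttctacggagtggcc

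The last comparison asked which members differed between the 4 libraries by more than the spread usual for their level. Each gene's counts were tested against a common mean with the negative binomial deviance at edgeR's trended dispersion, adjusted by Benjamini-Hochberg over all 12434 genes tested. Of the 131 members tested, 4 were called at an adjusted p under 0.05, where 0.523% of all genes tested were called (65 genes) and 0.491% of those that met the level rule whatever their type (55 of 11204). Gm12711, Gm2800, Gm29156 and Gm47552 did not pass the filter on low counts. Most members were steady: the highest library was under 1.5-fold of the lowest in 97 members, 1.5- to 2-fold in 25 and at least 2-fold in 13. The median CV was 11.8%, and it was 6.68% for members at 10 TPM or more against 15.4% for those under 5 TPM. Protein-coding genes at the same level rule had 3.54% and 11.1% in these ranges.

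**Figure D4:**
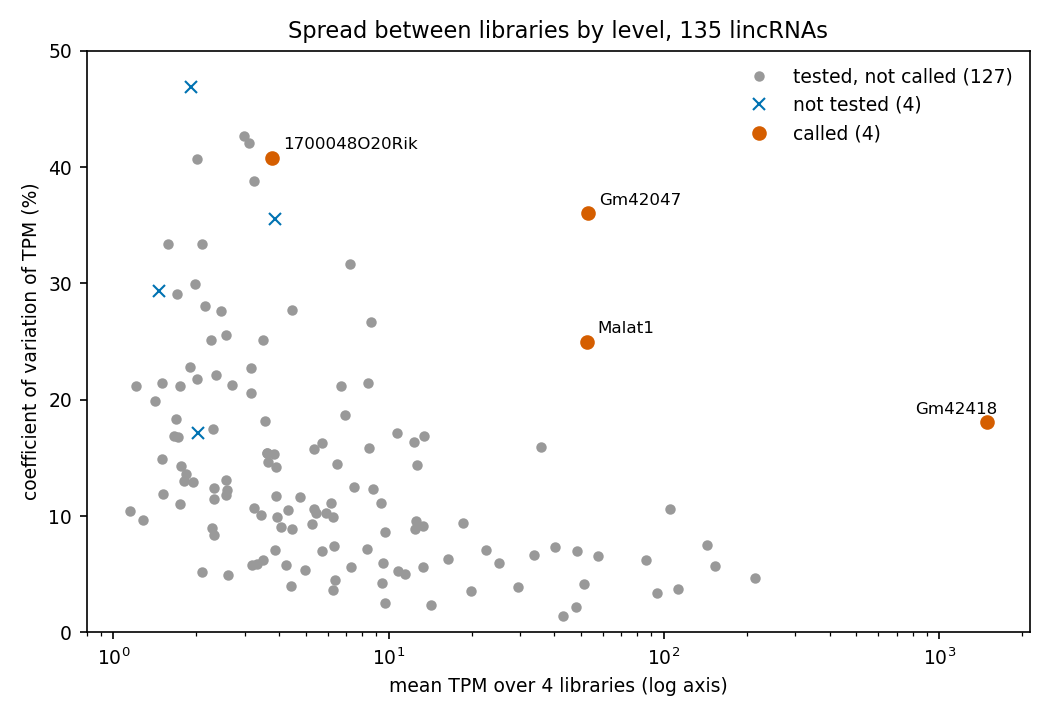
CV of TPM over 4 libraries (percent) against mean TPM (log axis) for the 135 members, with the 4 called members in a separate colour and the 4 untested ones as crosses. The spread falls as the level rises, and Gm42047 and Malat1 stand above other members of their level. Gm42418, with a CV of 18.1%, has no other member near its level.

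Gm42047 (chr8:121833247-121841178, plus strand, 4 exons) varied most clearly, at 69.8, 68.7, 31.6 and 42.5 TPM (edgeR, adjusted p = 2.71e-57). It had 3364, 4300, 3116 and 3104 counts, although replicate 3 was the deepest library. Replicates 1 and 2, which had the female pattern of sex-linked genes, were high and replicates 3 and 4, with the male pattern, were low. The part of that split in the difference was not tested. The partner Klhdc4, a kelch domain gene 3678 bases away, was at 99.8, 110, 102 and 103 TPM and did not follow the same order. As much as 64.8% of the 50-base windows of Gm42047 occur in genes elsewhere, 32.0% in the lincRNA Gm47939 on chromosome 10, so its counts are uncertain. It was still called without any one library, with adjusted p between 1.41e-57 and 1.64e-19.

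Malat1, an abundant RNA of nuclear speckles (chr19:5795690-5802672, minus strand), was highest in replicate 1 and called (edgeR, adjusted p = 2.88e-22). It was at 71.3 TPM there and at 43.3 to 51.7 TPM in the other libraries, and without replicate 1 the adjusted p was 0.333. Neat1, which lies beside it, had 6.03 to 6.53 TPM in all 4 libraries and was not called. Gm42418 was also highest in replicate 1 (edgeR, adjusted p = 0.0415), and without that library its adjusted p was 1. Without replicate 2 it was 0.0578. With all 4 libraries, DESeq2 gave Gm42418 an adjusted p of 1.38e-18. The edgeR fit with chromosomes X, Y and M left out gave 1.07e-14. Replicate 1 had the fewest counts of the 4 libraries, and whether depth or RNA quality plays a part was not tested.

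1700048O20Rik was at 5.19, 1.98, 4.93 and 3.02 TPM, from 93, 46, 181 and 82 counts (edgeR, adjusted p = 0.00655). Replicate 2 was lowest and replicates 1 and 3 highest. Its adjusted p was 0.927 without replicate 2 and 0.0773 without replicate 3, and DESeq2 gave 0.149. It shares 18.9% of its exon bases with Gm49343 on the same strand, and fragments there were not counted for either gene.

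**Figure D5:**
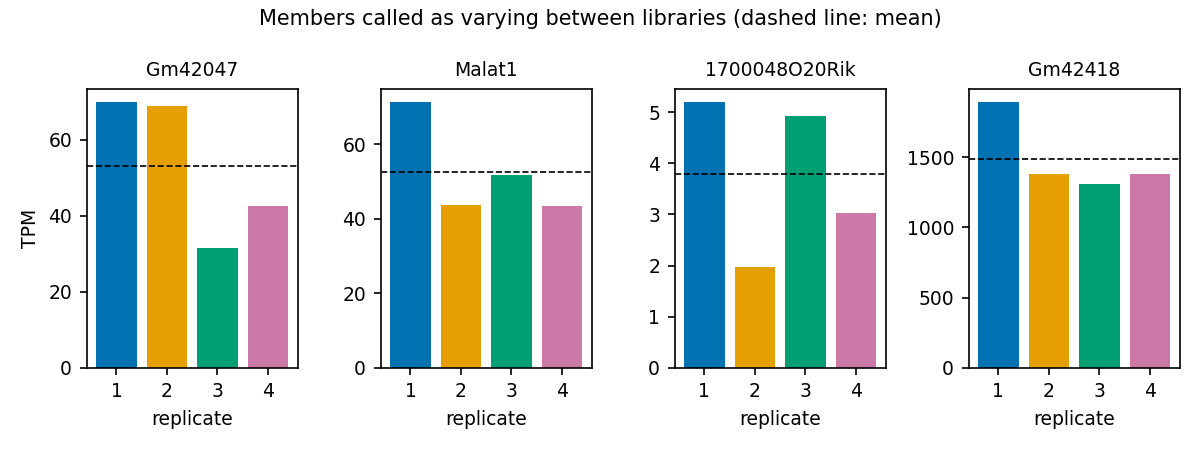
TPM in each of the 4 libraries (bars, axis from 0 in each panel) of the 4 members called as varying, with the mean as a dashed line. Gm42047 is high in replicates 1 and 2, Malat1 and Gm42418 are highest in replicate 1, and 1700048O20Rik is lowest in replicate 2.

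Of the next 6 members by p, none passed the threshold in the fit of all genes. Gm42031, at 10.8, 5.65, 7.98 and 10.04 TPM, had an adjusted p of 0.0583, of 0.0463 without replicate 3 and of 0.0428 with chromosomes X, Y and M left out of the fit, and 59.0% of its windows occur in genes elsewhere. Gm10451, at 3.52, 4.92, 3.35 and 5.95 TPM, had 0.193. Gm20186 was at 2.23, 2.06, 4.36 and 4.27 TPM (adjusted p = 0.606), lower in both libraries with the female pattern. Its counts are uncertain too, with 25.4% of its windows in the lincRNA Gm12840 on chromosome 4. Gm26809, which overlaps Gm20186 in the genome, holds 77.2% of the Gm20186 windows, matched on either strand. On the same strand, 0% of the exon bases of Gm20186 were shared with another deposited gene. Gm19585 had 0.661, and Gm7160 (2.23, 1.85, 1.33 and 3.00 TPM) and Gm17322 (6.48, 8.74, 6.93 and 5.66 TPM) had 1. Setting aside 8 members that lie in the ribosomal RNA row or share over 20% of their windows with genes elsewhere left 123 tested members, of which Malat1 and 1700048O20Rik were called.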

How the data were processed

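Fragment counts per gene were deposited for each of 4 total RNA-seq libraries. Per the file headers, the authors made them with featureCounts 1.4.6-p4 on GENCODE M13 exons, with both ends mapped and strand option 2, and without options for multi-mapping fragments or fragments overlapping 2 genes. The labels name build mm10. Which aligner was used is not stated in the labels or headers used. The same files hold exon lengths, from which TPM was computed here.

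Names and types came from GENCODE M21 (50376 of 50600 IDs matched without version). Variation was fitted with edgeR 4.0.16 (R 4.3.3; TMM factors, default filter) on raw counts, with a chi-square test on 3 degrees of freedom. DESeq2 1.42.0 was an alternative. On simulated counts of the 12434 genes, 54% of genes changed 1.5-fold in 1 library and 84% of those changed 2-fold were found. There were 0 calls when no gene was changed. The counts were drawn at the same trended dispersion that the test assumes. The simulation therefore cannot show how often calls on the deposited counts are false or missed.

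The members and lists were chosen with earlier results of these data known. Genes named with values were the 20 highest, the 10 of lowest p, those in the lists, the 10 leading pairs of each arrangement, small RNA hosts, and those at the threshold, at the ends of the length range or near T cell genes. The 3 promoters printed were chosen after values were seen, as were the shared-window alternatives. Of the 10 leading opposite-strand pairs, 1 is not reported here, nor drawn.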

Additional observations from a re-analysis of the deposited data

Results flagged for a closer look

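In 6 of 135 members (4.44%) 1 library lay far from the other 3 by Dixon's test, which flags about 1 in 20 groups of 4 by chance. Replicate 1 was the far library in 5 of the 6. It was highest for Gm42418 (1890 TPM, next 1379), Gm5547 (16.8 TPM, next 12.7), 5033430I15Rik (8.86 TPM, next 7.21) and Gm31718 (4.81 TPM, next 3.17), and lowest for 2010110K18Rik (3.04 TPM, next 3.38). Replicate 4 was highest for Gm48604 (3.07 TPM, next 2.47). Of these 6, Gm42418 was called as varying by edgeR. Over all members, replicate 1 was the highest library for 47, replicate 2 for 23, replicate 3 for 30 and replicate 4 for 35. Replicate 1 also had the fewest counts, 28555677, and the part of depth was not tested.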

How the results depend on the processing

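The number of members ranged from 96 with CPM in place of TPM to 177 at 0.5 TPM, and from 138 to 140 with 1 library left out. The number called as varying was 3 to 6 under the other planned settings, 2 to 4 with 1 library left out, and 2 without the members in the ribosomal RNA row or with shared windows. The Poisson alternative called 6 members, where it called 1.74% of all genes tested, and 2 of the 6 were among the 4. Over all genes tested, 65 calls became 216 with the Poisson alternative and 113 with no filter. They became 43 at an adjusted p under 0.01, 41 with a ratio of at least 1.5 asked, and 32 to 49 with 1 library left out. DESeq2 called 69 of 12434 genes, 3 of them members. With chromosomes X, Y and M left out of the fit, 85 of 12003 genes were called, 5 of them members. Members with an opposite coding start numbered 29 at 1 kb, 33 at 5 kb and 51 at 20 kb. Of the 135 members, 89 had a nearest coding gene at 5 TPM in every library, and 104 had one at 1 TPM by distance between gene bodies. Of the 119 members that overlap no protein-coding gene, 86 (72.3%) had a nearest coding gene at 1 TPM in every library. No paired analysis was possible because the 4 libraries form a single group. Members near 1 TPM rest on few counts, as low as 6 in a library for the least counted.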

Other observations

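Outside the autosomes, 3 lincRNAs on chromosome X met the same level rule. Counting by gene type, 138 of 4460 lincRNA rows were at 1 TPM or more in every library, as were 108 of 2566 antisense rows, 92 of 697 processed transcripts, 23 of 131 bidirectional promoter RNAs and 18 of 280 sense intronic RNAs. Of these 5 types the share was highest among bidirectional promoter RNAs, which are annotated from the start of a protein-coding gene, and lowest among lincRNAs.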
